A study of Mus musculus with 2 samples.

Results

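Stem-like cells were picked from single-cell RNA profiles of mouse bone marrow by their Hlf and Mecom RNA. A member had at least 2 UMIs of Hlf and at least 2 of Mecom, where a UMI (unique molecular identifier) is 1 counted RNA molecule. It also had fewer than 3 UMIs of Top2a and Mki67 together, fewer than 3 of Pf4 and fewer than 10 UMIs of Mpo per 10000. These limits were aimed at cycling cells, megakaryocytic cells and myeloid cells, and need not have left out every such cell. The rule gave 462 of the 9632 cells with at least 500 detected genes and at most 10% mitochondrial UMIs, 299 in the KO library and 163 in the WT library. Since Hlf, Mecom and the other genes of the rule chose the cells, their levels describe the choice and are not a finding.

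The KO library came from Phf6 knockout bone marrow cells and the WT library from Phf6 wild-type bone marrow cells. Cells of both genotypes had been transduced with a vector that carries the truncating RUNX1-S291fs mutation and GFP, so that the WT cells carry mutant RUNX1 too. GFP-positive cells were transplanted into recipient mice, and GFP+Lin- cells (carrying the vector and lacking markers of mature lineages) were sorted from recipient marrow 8 weeks later. There was 1 library per genotype, and neither the age, sex and number of mice nor any pooling is given in the sources used here. Differences between the genotypes, between mice and between library preparations therefore cannot be told apart, no p-value was computed, and every interval is a 95% interval for counting error alone.

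Hlf encodes a PAR bZIP transcription factor and Mecom the zinc-finger factor EVI1, and both are known for keeping blood stem cells able to renew themselves. Such cells divide rarely, sit in a marrow niche and give rise to all blood lineages through multipotent progenitors, which begin to express genes of one lineage before they commit to it. Phf6 encodes a PHD-finger chromatin protein, and Runx1 a transcription factor of blood cell development. Both are mutated in leukaemia.

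The members held 4764811 UMIs in the KO library and 2740583 in the WT library, of library totals of 120408100 and 131667969. The median was 15146 UMIs per KO cell and 16427 per WT cell, below the 22837 and 25794 of the other kept cells. Mitochondrial RNA took a median of 2.84% of UMIs in KO and 2.76% in WT members, and ribosomal protein RNA 26.8% and 28.2%. The libraries differed in RNA of a cell type that the members should not include: after each cell was thinned to 10000 UMIs, Jchain, a plasma cell gene, had a UMI in 1.45% of KO and 15.5% of WT members, and in 1.35% of the other KO and 13.6% of the other WT cells. Of 10 barcodes found in both libraries, 2 belonged to members.

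The label was checked on stem cell genes that the rule and the markers did not use. The 29 such genes of a stem cell identity list summed to 4836 counts per 1000000 UMIs (CPM) in KO and 4619 CPM in WT members, against 2179 CPM in the other KO cells and 1926 CPM in the other WT cells. Adgrl4, an adhesion receptor gene, stood at 2749 CPM in KO and 1980 CPM in WT members, and Angpt1, the ligand gene of the receptor Tek, at 2817 and 2904 CPM. Both were found in every member. Nxph1, which encodes a neurexin ligand, divided the members, with a UMI in 58.2% of KO and 54.6% of WT members. After thinning, its 90th percentile was 13 UMIs per KO cell and 11 per WT cell, while its median was 1 and 0. Among known stem cell surface genes, Ly6a (Sca-1) had a UMI in 65.6% of KO and 62.6% of WT members, against 18.1% and 9.68% of cells with at least 20 UMIs of the neutrophil elastase gene Elane. Procr (EPCR) was found in 23.1% of KO and 30.7% of WT members and in 5.16% and 3.71% of those Elane cells. Slamf1 (CD150) marked the members less: it was found in 20.4% of KO and 30.7% of WT members and in 19.3% and 22.3% of the other kept cells. In cells with at least 20 UMIs of Pf4 its shares were 69.2% and 66.0%. Ly6a was also found in 64.9% of KO and 48.0% of WT Hlf and Mecom positive cells that were cycling. The Elane cells had median depths of 33956 UMIs in KO and 33055 in WT. Cd48 is low on the most primitive stem cells and higher on multipotent progenitors. It was at 464 CPM in KO and 373 CPM in WT members, above the 235 and 202 CPM of the other kept cells. A UMI of Cd48 was found in 98.3% of KO and 93.9% of WT members. The rule thus did not single out Cd48-negative cells, and nearly all members held Cd48 RNA.

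The genes that set the members apart from all other kept cells were ranked by the lower of their ratios in the 2 libraries, and describe the choice. Vldlr, a lipoprotein receptor gene, was at 98.4 CPM in KO and 52.9 CPM in WT members, against 7.25 and 3.17 CPM in the other cells. The homeobox gene Hoxa9 stood at 69.9 and 81.7 CPM against 7.14 and 10.4 CPM, and Gimap6, of a GTPase family of lymphoid and stem cells, at 530 and 554 CPM against 94.8 and 81.1 CPM. Palld, an actin-binding protein gene, and Cd27, a TNF receptor family gene, were also among the 20 leading genes. Of these 20, Vldlr, B3galt1, Stxbp4, Pdgfd and Ccser1 were at least 1.5-fold higher in KO than in WT members, and Luzp2 and Samd12 were at least 1.5-fold lower.

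**Figure D1:**
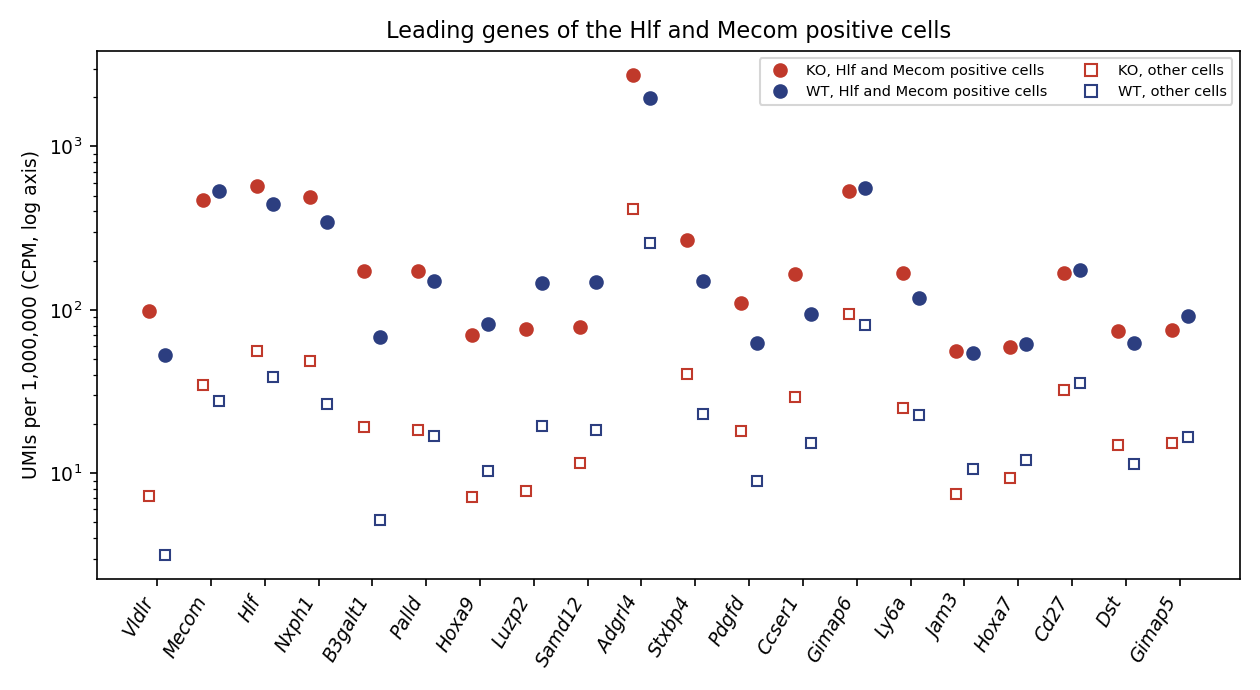
Levels of the 20 leading genes in counts per 1000000 UMIs on a log axis. Filled circles are Hlf and Mecom positive cells, open squares all other kept cells, red KO and blue WT; Vldlr stands at 98.4 CPM in KO and 52.9 CPM in WT members, far above the other cells.

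The rule took 6.06% of KO cells (interval 5.41 to 6.77) and 3.47% of WT cells (2.96 to 4.03), a difference of 2.60 percentage points (1.75 to 3.45). Hlf and Mecom themselves differed between the libraries outside the members: Hlf was at 56.2 CPM in the other KO and 38.9 CPM in the other WT cells, and Mecom at 34.6 and 27.5 CPM. The share thus moves with the genes that define it, and their part in it was not tested. With every cell thinned to 10000 UMIs before the rule, the share was 6.17% in KO and 3.32% in WT. Of the cells with 2 UMIs of both genes, 236 of 612 KO cells (38.6%) and 196 of 414 WT cells (47.3%) failed the limit on Top2a and Mki67, and 154 KO cells (25.2%) and 147 WT cells (35.5%) failed the limit on Pf4. The KO-minus-WT difference was -8.78 points (-14.9 to -2.61) for the cycling limit and -10.3 points (-16.1 to -4.62) for the Pf4 limit. Just inside the Hlf limit, at exactly 2 UMIs, stood 28 KO and 11 WT members, with Adgrl4 at 2245 and 1363 CPM. Just outside it, at 1 UMI, were 20 KO and 20 WT cells, with Adgrl4 at 1593 and 1132 CPM. For Mecom, 41 KO and 19 WT members lay at exactly 2 UMIs, and 82 KO and 49 WT cells with 1 UMI were left out.

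The targeted gene, Phf6, had 146 UMIs in KO and 136 in WT members, which is 30.6 and 49.6 CPM. That is a KO over WT log2 ratio of -0.70 with an interval of -1.04 to -0.35, beside -1.05 in the other cells; as a mean over cells of UMIs per 10000 it was -0.58, within the 1.5-fold limit. The kit reads the 3' end of a transcript and the deleted stretch of Phf6 is not given in the labels, so this RNA does not by itself check the genotype. Runx1 stood at 1605 CPM in KO and 1187 CPM in WT members (0.43, 0.38 to 0.49), and vector RNA was not analysed here.

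Between the genotypes, 6642 genes with a mean of at least 20 CPM were compared in the members. A gene was called at a 1.5-fold difference: 269 genes (4.05%) were higher and 105 (1.58%) lower in KO members. The counts of called genes in the lists below stand beside these shares, and a count near them is not a result about a list. The median log2 ratio of all 6642 genes was 0.04. Of the other kept cells' 6513 genes, 94 (1.44%) were higher and 60 (0.921%) lower by the same rule; their sums rest on more UMIs. Of 177 genes called higher in the members and measured in the other cells, 44 were called higher there too and 0 lower, and of 67 genes called lower, 12 were lower there and 0 higher. With the libraries scaled by a median of ratios, 210 genes were higher and 142 lower, so that the share of calls that were higher was 59.7%, against 71.9% here.

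**Figure D2:**
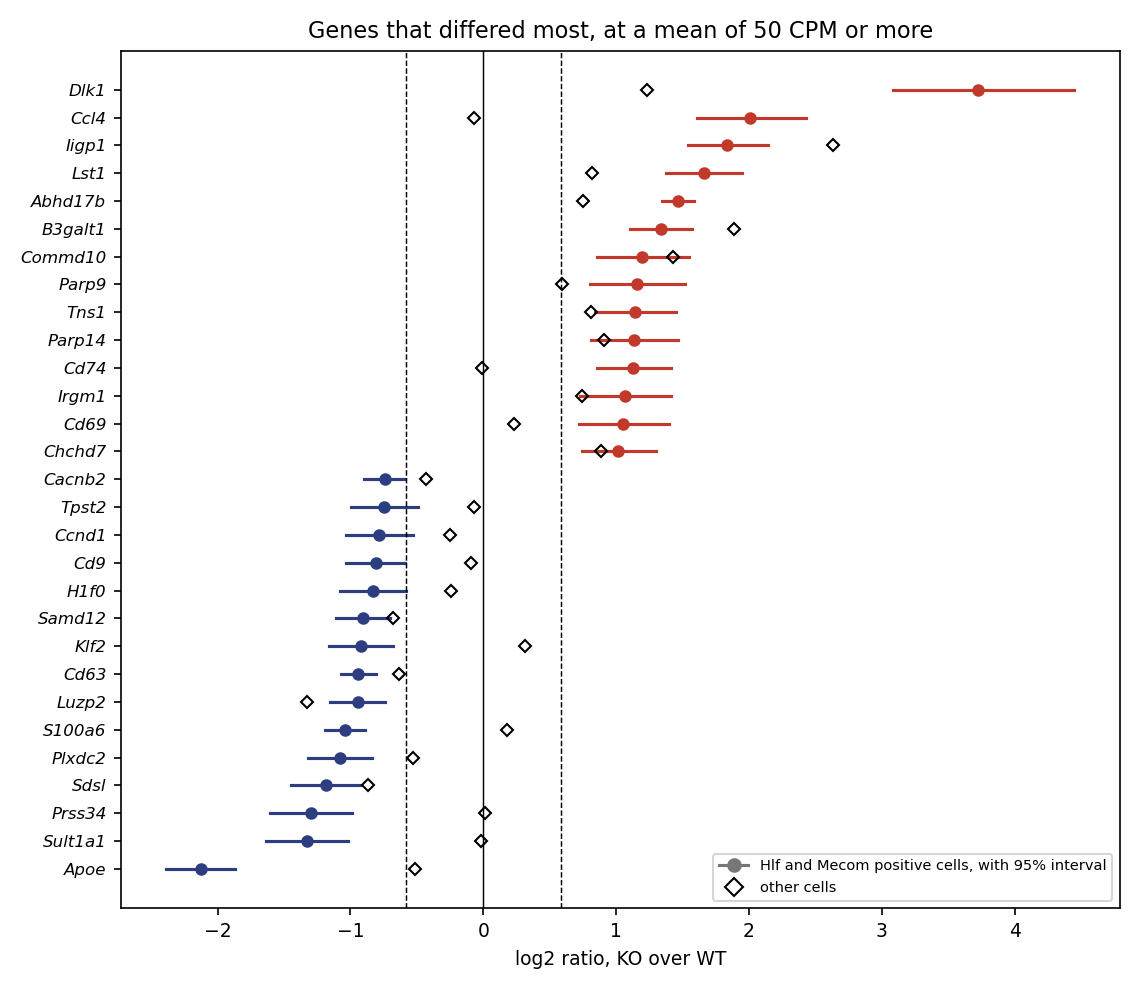
Log2 ratio of KO over WT for 14 of the 15 highest and for the 15 lowest genes at a mean of at least 50 CPM in the Hlf and Mecom positive cells, with 95% counting intervals; open diamonds give the same ratio in all other kept cells and dashed lines the 1.5-fold limits. Abhd17b, at 1.46, has the narrowest interval of the genes on the higher side, and the diamonds of Ccl4, S100a6 and Klf2 lie across 0 from their circles, as do those of Cd74 and Prss34 at -0.01 and 0.01.

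Abhd17b, which encodes a depalmitoylating enzyme, was the most abundant gene among the 15 highest. It stood at 671 CPM in KO and 243 CPM in WT members (log2 ratio 1.46, 1.34 to 1.59), and at 240 and 142 CPM in the other cells. The difference was not limited to a few cells: after thinning, the median KO cell had 6 UMIs (10th to 90th percentile 2 to 13) and the median WT cell 2 (0 to 5). Abhd17b lies on GRCm38 chromosome 19 from 21653185 to 21685637, plus strand. The gene 1110059E24Rik, with a gap of 209 bases between it and Abhd17b, was also called higher (96.8 and 45.2 CPM). Lst1, a leukocyte gene of the MHC class III region, was at 139 CPM in KO and 44.2 CPM in WT members (1.66), with a UMI in 62.3% and 32.3% of thinned cells. B3galt1, a galactosyltransferase gene, was at 173 and 68.6 CPM (1.34), and Tns1, a focal adhesion protein gene, at 90.9 and 41.2 CPM (1.14). Commd10, of a family that acts in endosomal sorting, was at 74.5 and 32.5 CPM (1.20).

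Some of the highest ratios rested on few cells. Dlk1, an imprinted gene for a Notch-family ligand, had 460 UMIs in KO and 20 in WT members (96.5 and 7.30 CPM, log2 ratio 3.73), but was found in 36 of 299 KO and 5 of 163 WT members, and a single cell held 70% of the WT UMIs and another 19% of the KO UMIs. Ccl4, a chemokine gene, was at 85.2 and 21.2 CPM (2.01) and was found in 79 KO and 26 WT members; with the rule applied to thinned cells its ratio was 1.40. Of the 374 called genes, 17 had more than 20% of their UMIs in a library from 1 cell.

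Receptor genes of growth factors and cytokines were compared as a list, of which 3 of 14 measured genes were higher in KO members and 0 lower, with a median of 0.09. Flt3, a receptor of multipotent and lymphoid-primed progenitors, was at 77.0 CPM in KO and 39.0 CPM in WT members (0.98), and Csf2rb, the shared beta chain of the IL-3 and GM-CSF receptors, at 47.6 and 28.1 CPM (0.76). Kit, the stem cell factor receptor gene, stood at 384 and 324 CPM (0.24), and Tek at 72.2 and 68.2 CPM (0.08, -0.18 to 0.35).

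Downstream of such receptors, 4 of 14 measured JAK-STAT and SOCS genes were higher in KO members and 0 lower, with a list median of 0.14. Pim1 and Pim2, survival kinase genes induced by STATs, were at 645 and 390 CPM (0.73) and at 44.1 and 24.1 CPM (0.87) in KO and WT members. Socs3, a feedback inhibitor gene, was at 34.4 and 20.1 CPM (0.78). Jak1, Jak2, Stat3, Stat5a and Stat5b lay between 0.05 and 0.16.

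Within the stem cell identity list itself the genes were not higher or lower together. Of 25 measured genes, 2 were higher (Mllt3 among them), 2 were lower (Sult1a1 and Esam), and the median was 0.00. Over all measured genes, 4.05% were higher and 1.58% lower. Mllt3, a chromatin reader gene that maintains human blood stem cells, was at 241 CPM in KO and 147 CPM in WT members (0.71, 0.55 to 0.88). Esam, an endothelial adhesion gene used to enrich stem cells, was at 50.4 and 83.2 CPM (-0.72, -0.99 to -0.46), and Sult1a1, a sulfotransferase gene, at 31.7 and 79.5 CPM (-1.33). Below the fold limit, Ly6a was at 168 and 118 CPM (0.50), while Procr was at 22.9 and 33.6 CPM (-0.55, -0.97 to -0.14) and Slamf1 (CD150) at 26.9 and 35.4 CPM (-0.40). Gata2, Tal1 and Lmo2, core factors of stem cells, differed by 0.01 or less. Among homeobox genes, Pbx3, a HOX cofactor gene, was at 259 and 140 CPM (0.88), and 1 of 8 measured genes of that list was higher and 0 lower.

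Interferon response genes had the most calls of the 38 lists. Of the 32 genes of this list that were measured, 23 passed 1.5-fold in the KO direction and 0 in the WT direction. Their median log2 ratio was 0.79. In the other cells the median was 0.59 over the 21 list genes measured there, so that the medians cover different genes. Ifit1, which binds foreign RNA, stood at 45.8 CPM in KO and 9.12 CPM in WT members (2.33). Iigp1, an immunity-related GTPase gene, was at 142 and 39.8 CPM (1.83), Ifi44 at 62.5 and 21.2 CPM (1.56), and Isg15, a ubiquitin-like modifier gene, at 57.7 and 25.2 CPM (1.20). In all other kept cells Iigp1 was lower, at 23.9 CPM in KO and 3.85 CPM in WT, but its ratio there was larger than in the members. The signal transducer gene Stat2 was at 30.6 and 12.8 CPM (1.26). The receptor genes Ifnar1 and Ifnar2 were at 34.4 and 29.2 CPM (0.24) and at 148 and 144 CPM (0.03). Parp9 and Parp14, ADP-ribosyltransferase genes that interferon induces, were at 69.0 and 31.0 CPM (1.15) and at 79.3 and 36.1 CPM (1.13).

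The interferon genes were spread unevenly over KO members. The summed list had a median of 27 UMIs per thinned KO cell (10th to 90th percentile 16 to 56) and 21 per WT cell (13 to 34). The highest WT cell had 51 UMIs, and 31 of 276 KO cells lay above it; these 31 held 33.7% of the KO cells' list UMIs, and the highest 4 had 283 to 331 UMIs each. With the 5% of cells with the highest list sums left out in each library (15 KO and 9 WT cells), 11 of 28 measured genes were at least 1.5-fold higher and 0 lower, and the median was 0.55. Iigp1 was then at 64.4 and 20.6 CPM (1.65), Isg15 at 31.3 and 23.6 CPM (0.41), and the log2 ratio of Ifit1 was 1.46.

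Interferon-stimulated genes are known to carry a response element bound by a complex that holds STAT2 and IRF9, and the start regions of 4 of the genes above are shown for that reason. A core of this element, GAAA followed by any 2 bases and GAAA again, was searched on both strands in RefSeq windows of build GRCm38.p6 from 250 bases before to 50 bases after each gene's start. It was present for 11 of the 17 higher interferon genes with a window and for 4 of 8 measured genes that were not called, against 3.99% of all 27025 genes with a window. A gene with several windows was counted once, with a match in any of them. Matches on both strands and overlapping ones were counted. The 150 bases before the start follow for the 4 highest of these genes whose window runs into a GENCODE transcript and whose match lies in those 150 bases, with matches in capitals, in gene orientation:
Ifit1 (chr19:34640739-34640888, plus strand): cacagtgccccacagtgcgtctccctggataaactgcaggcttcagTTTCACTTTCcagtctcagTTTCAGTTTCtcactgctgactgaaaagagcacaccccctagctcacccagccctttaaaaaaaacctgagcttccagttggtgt
Isg15 (chr4:156200819-156200968, minus strand): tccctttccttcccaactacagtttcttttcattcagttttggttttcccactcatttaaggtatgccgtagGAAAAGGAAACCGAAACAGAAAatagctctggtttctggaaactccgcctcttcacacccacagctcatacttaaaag
Irgm1 (chr11:48871421-48871570, minus strand): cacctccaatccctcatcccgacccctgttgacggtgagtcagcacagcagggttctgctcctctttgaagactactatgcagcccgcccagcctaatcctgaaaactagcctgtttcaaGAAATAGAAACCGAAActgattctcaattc
Igtp (chr11:58199406-58199555, plus strand): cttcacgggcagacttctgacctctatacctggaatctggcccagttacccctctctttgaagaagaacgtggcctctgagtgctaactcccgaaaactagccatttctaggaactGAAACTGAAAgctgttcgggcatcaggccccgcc
Isg15 held 3 overlapping matches at positions -78 to -57, counted back from its start, and Ifit1 held 2 separate ones at positions -104 to -76. Irgm1 and Igtp, both immunity-related GTPase genes, were at 70.9 and 33.9 CPM (1.06) and at 62.3 and 32.5 CPM (0.94) in KO and WT members. The starts are those of RefSeq, and GENCODE places some of them elsewhere. Irgm1 spans 48861968 to 48871683 in GENCODE, so that its stretch above lies inside the annotated gene. Ifit1 begins at 34640871 there, so that the last bases of its stretch lie inside the gene too. A match describes these letters and does not show binding.

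**Figure D3:**
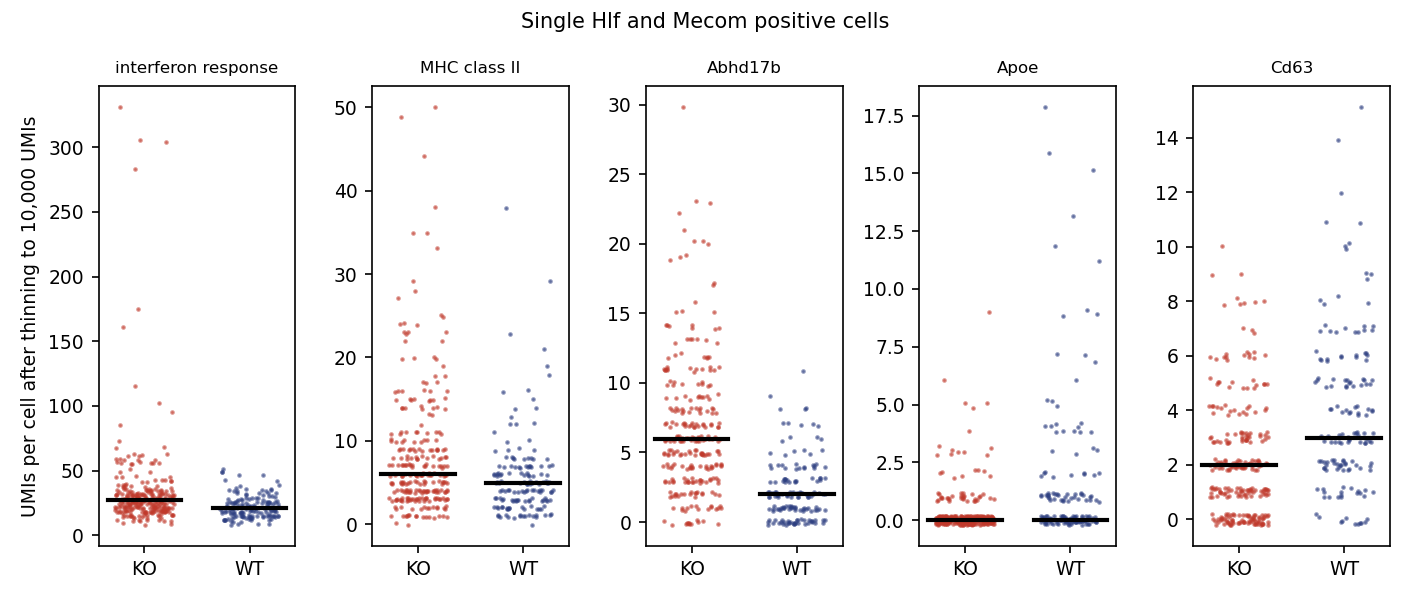
UMIs per single cell after thinning to 10000 UMIs, for 276 KO (left, red) and 155 WT (right, blue) Hlf and Mecom positive cells; bars are medians and points are spread sideways and slightly upwards or downwards for visibility. The summed interferon list has a median of 27 in KO and 21 in WT cells and a KO tail up to 331, whereas Abhd17b is shifted as a whole (medians 6 and 2).

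Antigen presentation genes of class II passed the limit and those of class I did not; the difference between the lists was not tested. Of 7 measured MHC class II genes, 4 were higher in KO members and 0 lower, with a median of 0.86. In the other cells the median was 0.26 over the 6 genes measured there. Cd74, the invariant chain, was at 110 CPM in KO and 50.4 CPM in WT members (1.13, 0.86 to 1.41), and H2-Aa and H2-Eb1, which encode class II chains, were at 116 and 61.7 CPM (0.91) and at 66.3 and 36.5 CPM (0.86). Cd74 was found in 41.5% of KO and 19.6% of WT members, against 10.9% and 8.55% of the Elane cells. The list's sum after thinning had a median of 6 UMIs per KO cell and 5 per WT cell. Of 17 measured MHC class I genes, 0 were called either way, with a median of 0.15.

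Lymphoid priming genes were mixed. Of 9 measured genes, 3 were higher and 1 lower in KO members, with a median of 0.42. Dntt, the terminal transferase of antigen receptor joining, had 181 UMIs in KO and 24 in WT members (log2 ratio 2.12). It was found in 24.4% of KO and 5.52% of WT members, and in 1.83% and 0.908% of the Elane cells. The KO share was also the higher in sets closer to the members. Dntt was found in 27.7% of KO and 8.16% of WT cycling Hlf and Mecom positive cells. Among Angpt1 positive cells without Hlf or Mecom the shares were 16.7% and 3.40%, and among all other kept cells 9.57% and 2.89%. Satb1, a chromatin organiser gene, was at 64.0 and 24.1 CPM (1.41), and Flt3 is given above. Ikzf1, a lymphoid factor gene, was at 205 and 212 CPM (-0.04). Ighm, the IgM heavy chain gene, was lower (11.1 and 47.8 CPM, -2.10), as it was in the other cells (-3.33), beside the Jchain shares given above; the part of free plasma cell RNA in it was not tested.

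**Figure D4:**
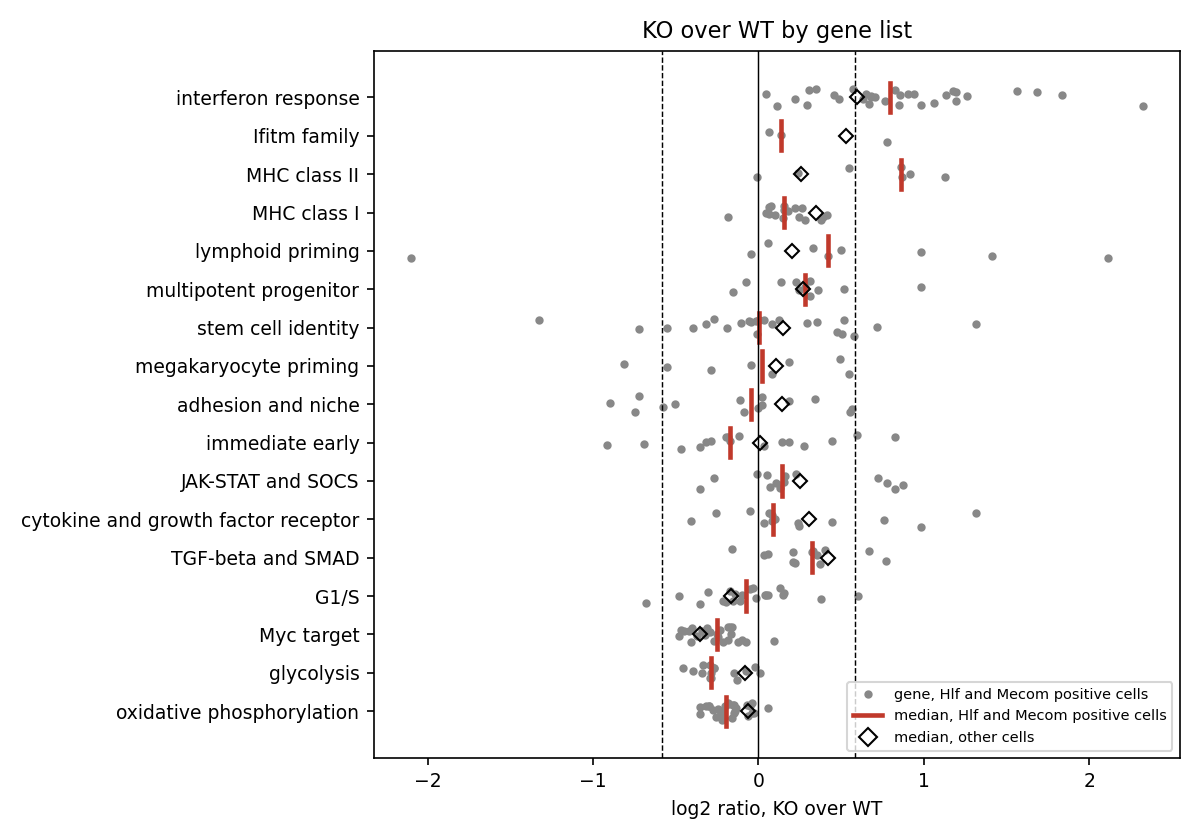
Log2 ratio of KO over WT in Hlf and Mecom positive cells for 17 gene lists. Grey points are genes with a mean of at least 20 CPM, red bars their median and dashed lines the 1.5-fold limits. Open diamonds are the list's median in all other kept cells, over the genes measured there, which can differ from the grey points. The interferon (0.79) and MHC class II (0.86) medians lie past the limit, and the stem cell identity median lies at 0.00.

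The lowest genes in KO members had varied roles. Apoe, the apolipoprotein E gene, was at 37.4 CPM in KO and 163 CPM in WT members (log2 ratio -2.13, -2.39 to -1.87), and at 80.7 and 115 CPM in the other cells (-0.52). It was found in 24.4% of KO and 52.8% of WT members. In the deeper Elane cells, with 25.3 and 27.6 CPM, the shares were 34.8% and 34.7%. KO members thus lay below the Elane cells by share, which rises with depth, and above them by CPM. The part of background RNA in their Apoe was not tested. The tetraspanin genes Cd63 and Cd9 were at 197 and 378 CPM (-0.94) and at 72.0 and 126 CPM (-0.81). For Cd63 the median was 2 UMIs per thinned KO cell and 3 per WT cell. S100a6, a calcium-binding protein gene, was at 141 and 289 CPM (-1.04). Sdsl, a serine dehydratase-like gene, had 210 and 274 UMIs (-1.18), and Cacnb2, a calcium channel subunit gene, was at 148 and 248 CPM (-0.74). Ccnd1, the cyclin D1 gene, was at 56.5 and 97.1 CPM (-0.78), or at -0.50 with the rule applied to thinned cells, which ends the call. Prss34, a basophil protease gene, was also among the lowest, but 1 cell held 94% of its KO UMIs and 1 cell 98% of its WT UMIs.

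Genes of adhesion and of rapid response were divided too. Of 14 measured adhesion and niche genes, 3 were lower and 0 higher in KO members: Esam, the integrin gene Itgb2 (24.6 and 41.2 CPM, -0.75) and the sialomucin gene Emcn (14.5 and 27.0 CPM, -0.90). Emcn was at -0.49 with the rule applied to thinned cells, and Esam at -0.57 with Hlf and Mecom at 3 UMIs or more, either of which ends the call. Pecam1 was at 122 and 82.1 CPM (0.57), and Itga4, which holds stem cells to VCAM1, at 294 and 258 CPM (0.19). Of 17 measured immediate early genes, 2 were higher and 2 lower, with a median of -0.17. Myc was at 142 CPM in KO and 80.3 CPM in WT members (0.82, 0.60 to 1.05) and Zfp36l1 at 106 and 70.1 CPM (0.60, but 0.36 to 0.56 under 5 alternatives, which end the call). Klf2, a quiescence-associated factor gene of lymphocytes and endothelium, was at 57.9 and 109 CPM (-0.92), and Dusp1 at 91.3 and 147 CPM (-0.69, but -0.50 with the rule applied to thinned cells). Jun stood at 856 and 1187 CPM (-0.47) and Fos at 493 and 535 CPM (-0.12).

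While Myc was called higher, none of 25 measured Myc target genes was called in either direction. Their median was -0.25, and -0.35 in the other cells. Nme1, a nucleotide kinase gene, was at 149 and 207 CPM (-0.48), and Dkc1, of ribosomal RNA modification, at 104 and 144 CPM (-0.47). Glycolysis genes (15 measured, 0 called) had a median of -0.28, and oxidative phosphorylation genes (30 measured, 0 called) one of -0.19. Of 22 measured G1/S genes, 1 was higher (Rrm1, 38.2 and 25.2 CPM, 0.60, but 0.07 with the rule applied to thinned cells) and 1 lower (Cdc6, 16.0 and 25.5 CPM, -0.68, but -0.57 in the same setting), with a median of -0.08. These counts lie near the shares over all measured genes, 4.05% higher and 1.58% lower. Quiescence and CDK inhibitor genes had 0 of 12 called and a median of 0.00, with Cdkn1b at 76.4 and 78.8 CPM. Since the rule had left out cells with 3 or more UMIs of Top2a and Mki67 together, cell cycle levels are partly set by it. Some members still had high G1/S sums. After thinning, the list's median was 9 UMIs per KO and 9 per WT member, but the 90th percentile was 30.5 and 29. The medians of the other cells were 23 and 26. Of 13 measured TGF-beta and SMAD genes, 2 were higher and 0 lower: the receptor genes Tgfbr1 (98.2 and 57.7 CPM, 0.77) and Eng (116 and 73.0 CPM, 0.67), with a list median of 0.32.

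Few genes of complexes and pathways tied to the mutated genes were called. Of 15 measured genes of Phf6 and the NuRD remodelling complex, to which PHF6 binds, Phf6 alone was lower and 0 were higher, and the log2 ratio of Chd4, its ATPase, was -0.09. Of 6 measured Runx genes 0 were called, and the median was 0.26, beside 0.28 in the other cells. Runx2 was at 440 CPM in KO and 341 CPM in WT members (0.37) and Cbfb, the partner of RUNX proteins, at 103 and 92.0 CPM (0.17). Polycomb genes had 1 of 18 higher (Pcgf3, 25.8 and 16.4 CPM, 0.65) and p53 targets 1 of 9 (Trp53inp1, 43.7 and 22.3 CPM, 0.97), with 0 lower in either list. Over all measured genes, 4.05% were higher and 1.58% lower, so that 1 call is not a result about such a list. NF-kappa B (11 measured), BCL2 family (7), heat shock (11) and oxygen and iron handling genes (14) had 0 called, with medians of 0.12, -0.14, -0.23 and -0.19. Among 8 measured genes known to change in aged stem cells, Alcam was higher (79.8 and 41.6 CPM, 0.94) and Nupr1 lower (24.6 and 41.2 CPM, -0.75). Of 3 measured Ifitm genes, Ifitm1 was higher (196 and 114 CPM, 0.78), while Ifitm3 stood at 440 and 400 CPM (0.14).

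Genes of other lineages were present in the members to different degrees. The neutrophil list summed to 779 CPM in KO and 857 CPM in WT members, against 11609 and 10195 CPM in the other cells, and the monocyte list to 181 and 107 CPM, against 1970 and 1583 CPM. The erythroid list summed to 655 and 845 CPM, against 1124 and 3288 CPM, yet the median per thinned cell was 6 UMIs in KO and 8 in WT members, against 3 and 3 in the other cells. The mast cell and basophil list summed to 526 and 608 CPM, against 790 and 686 CPM in the other cells. The dendritic cell list summed to 338 and 213 CPM, against 322 and 289 CPM, and had 2 of 3 measured genes higher (Cd74 and Flt3, both also in other lists) and a median of 0.98. The endothelial and stromal list summed to 143 CPM in KO and 114 CPM in WT members, against 111 and 96.6 CPM in the other cells; its measured genes were Pecam1 and Emcn, which blood stem cells also express. The part of other cell types in the results was not tested. Hbb-bs, a haemoglobin gene, was at 24.8 and 43.8 CPM (-0.82, and -0.39 without its highest cell in each library), beside Hba-a1 in 6.52% of KO and 21.9% of WT thinned members and in 6.47% and 14.3% of the other cells. Cdh5, Stab2, Cxcl12, Lepr, Col1a1 and Col1a2 of the endothelial and stromal list were at 0 in both libraries, as were Cd3e, Cd3g, Trbc1 and Gzma of the T and NK cell list and Siglech, Cd209d and Xcr1 of the dendritic cell list. The B cell and plasma cell list summed to 45.3 and 40.5 CPM, and its early B cell gene Ebf1 had 44 KO UMIs in 2 cells and 0 in WT. Of 4 measured mast cell and basophil genes, 3 were lower (Hdc, Mcpt8 and Prss34, between -1.30 and -0.94), and for each of these 1 cell held 81% or more of the UMIs in each library.

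Plag1, a zinc-finger proto-oncogene known from salivary gland tumours, was singled out after its values were seen, since its mean of 27.2 CPM lay below the limit for named genes. It had 256 UMIs in KO and 2 UMIs in WT members, or 53.7 and 0.730 CPM. The ratio was 73.6-fold, with a counting interval of 20.2 to 611, since it rests on 2 WT UMIs. A UMI was found in 138 of 299 KO members (46.2%, 40.4 to 52.0) and in 2 of 163 WT members (1.23%, 0.149 to 4.36), and 66 KO and 0 WT members had 2 or more. The KO cells with a UMI of Plag1 were not confined to the members. Among cycling Hlf and Mecom positive cells the shares were 51.4% in KO and 4.08% in WT, and among cells with at least 2 Angpt1 UMIs but no UMI of Hlf or Mecom 22.7% and 0.377%. Among cells with at least 20 UMIs they were 30.4% and 2.97% for Pf4, a megakaryocyte gene, and 15.1% and 2.04% for Elane, although the Elane cells were deeper (medians of 33956 and 33055 UMIs).

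The gene next to Plag1 was higher as well. Plag1 (ENSMUSG00000003282) lies on GRCm38 chromosome 4 from 3900996 to 3938423 on the minus strand, and Chchd7, a mitochondrial protein gene, starts 465 bases away and runs from 3938888 to 3951046 on the plus strand, so that the pair face away from each other. Chchd7 had 482 UMIs in KO and 137 UMIs in WT members (log2 ratio 1.02, 0.74 to 1.30). Its ratio was 0.88 in the other cells, 1.28 in the cycling Hlf and Mecom positive cells and 0.94 in the Angpt1 positive cells. Of their neighbours, Rps20 stood at 4947 and 5037 CPM (-0.03), Gm11808 at 82.1 and 81.7 CPM (0.01) and Lyn, a Src-family kinase gene 87874 bases from Plag1, at 212 and 187 CPM (0.18). Mos, 28891 bases away, had 0 UMIs in members of either library.

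**Figure D5:**
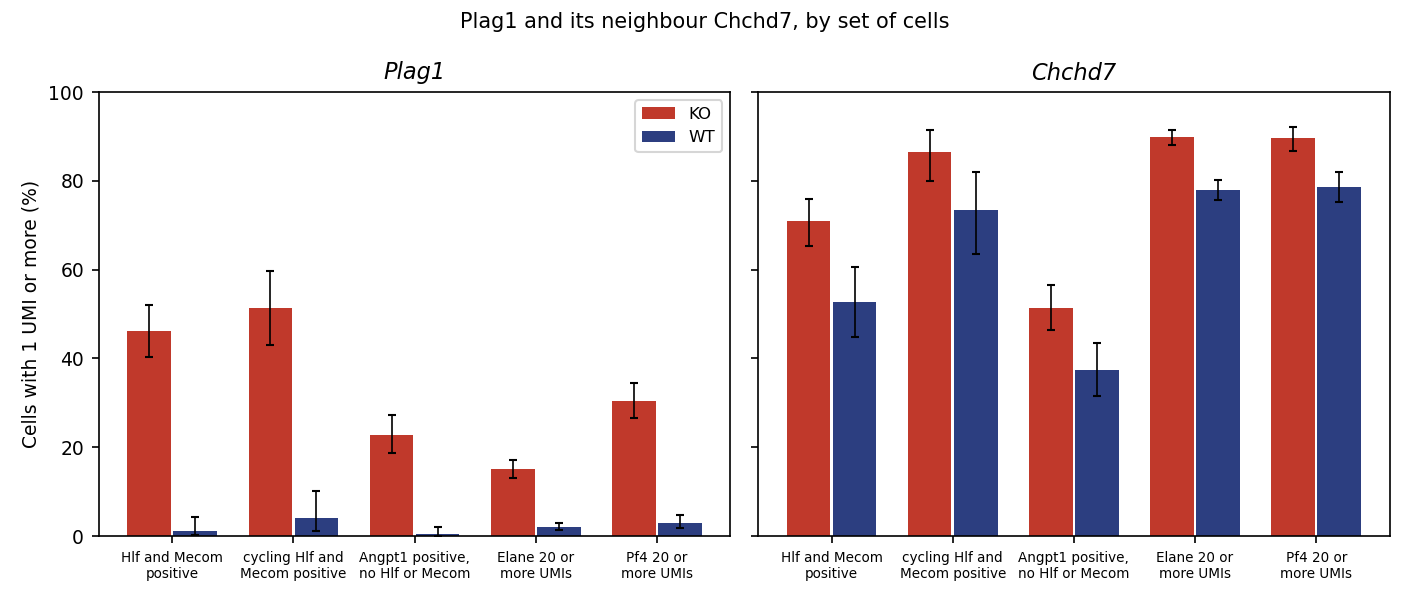
Share of cells with at least 1 UMI of Plag1 (left) and Chchd7 (right) in 5 sets of cells, KO in red and WT in blue, with exact 95% binomial intervals; the Elane and Pf4 sets are all kept cells with at least 20 UMIs of that gene. Plag1 was found in 46.2% of KO and 1.23% of WT Hlf and Mecom positive cells, and in 15.1% and 2.04% of Elane cells.

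In sets of cells that share marker genes with them, the members' differences were found again to varying degrees. Cycling Hlf and Mecom positive cells (148 KO and 98 WT), which differ from the members by the Top2a and Mki67 limit, had 245 genes (3.65%) higher and 75 (1.12%) lower of 6706. Angpt1 positive cells without Hlf or Mecom (383 KO and 265 WT) had 259 (3.95%) higher and 142 (2.16%) lower of 6560. Abhd17b had log2 ratios of 1.46 in the members, 1.10 in the cycling cells and 1.14 in the Angpt1 positive cells. Apoe was at -2.13, -1.36 and -0.85. Cd74 was at 1.13 in the members and 1.90 in the cycling cells but at -0.79 in the Angpt1 positive cells, and S100a6 at -1.04, -0.91 and 0.26. In the Angpt1 positive cells, 1 cell held 240 of 577 KO Cd74 UMIs and 1 cell 307 of 766 WT UMIs. Cd74 was found there in 13.6% of KO and 10.9% of WT cells. The Angpt1 positive cells also held RNA of committed cells, with the basophil gene Mcpt8 at 1005 CPM in KO and 1227 CPM in WT. These differences between sets of cells were not tested.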

How the data were processed

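Single-cell RNA was measured with the Chromium 3' kit v3.1 in 1 KO and 1 WT library. Each deposited file set is a table of raw UMI counts, genes by barcodes. Cell Ranger 6.0.2 is named per the file headers, whereas version 3.0.1 and the build GRCm38 come from the submitters' processing notes. Positions came from GENCODE M21 (32158 of 32285 gene IDs).

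UMIs were summed over a library's member cells and divided by their total (CPM). The log2 ratio of KO over WT has an exact conditional binomial interval, levels exact Poisson intervals, shares exact Clopper-Pearson intervals and differences of shares Newcombe intervals, all at 95% and for counting error only. A gene counted as measured at a mean of at least 20 CPM and as called at 1.5-fold. For per-cell values, cells were thinned to 10000 UMIs, which left out 23 KO and 8 WT members as too shallow. Doublets were scored with scanpy's Scrublet, and the highest scores were marked, 0.8% of a library for each 1000 barcodes, with 2 KO and 0 WT members among them. Marked cells were kept in the main values.

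Named were the genes of the rule and the markers, Phf6, Runx1, the 15 highest and 15 lowest ratios at a mean of at least 50 CPM, the 20 leading genes against other cells at 50 CPM in both libraries, and up to 4 members of each of 38 lists by size of ratio; mitochondrial, ribosomal protein, haemoglobin, immunoglobulin, Y-linked and predicted genes were left out of the ranked genes. Other list members named show the range of their list and were chosen after their values were seen. The members, the lists and the rule were chosen with earlier results of these data known. Alternatives were other cell filters, UMI limits, scalings and level minimums. The ratio script was tested on simulated counts. Results of a few genes are not reported here. Start regions came from RefSeq (GRCm38.p6).

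Tools were Python 3.11.15, numpy 2.4.6, scipy 1.17.1, pandas 2.3.3, scanpy 1.11.5, matplotlib 3.10.9, R 4.3.3 and edgeR 4.0.16 (TMM factors only).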

Additional observations from a re-analysis of the deposited data

Results flagged for a closer look

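For 7 named genes the KO over WT ratio in the Hlf and Mecom positive cells lay past 1.5-fold and the ratio in all other kept cells lay on the opposite side of 0, with counting intervals that left out 0. The difference between the 2 sets of cells was not tested for any of them, since each genotype has 1 library. Ccl4 was at 2.01 in the Hlf and Mecom positive cells and -0.07 in the others. Rrm1 was at 0.60 and -0.17. S100a6 was at -1.04 and 0.18, and Klf2 at -0.92 and 0.32. Itgb2 was at -0.75 and 0.21, and Nupr1, a stress-response gene, at -0.75 and 0.16. Mcpt8, a basophil protease gene, was at -1.29 and 0.46, and 1 cell held 89% of its KO UMIs and 1 cell 97% of its WT UMIs in the Hlf and Mecom positive cells.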

How the results depend on the processing

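No paired analysis was possible because each genotype has 1 library and the labels carry no replicate numbers. The difference in share was 3.57 points with Hlf and Mecom at 1 UMI or more, and between 1.87 and 2.85 points under the other 4 cell settings. Calls numbered 493 higher and 221 lower at a minimum of 10 CPM, 31 and 9 at 100 CPM, and 69 and 32 where the whole interval had to lie past 1.5-fold; of 4 list medians past 1.5-fold, 0 were so at 100 CPM, where fewer genes were measured. edgeR TMM factors gave 219 higher and 133 lower. The mast cell and basophil median was 0.14 at 100 CPM, and 0.17 with each gene's highest cell left out, a setting chosen after seeing the data; Prss34 was then at 0.37, Mcpt8 at 0.34 and Hdc at 0.47. That setting takes 1 of 163 WT and 1 of 299 KO cells and so favours higher ratios. Leaving out the 5% of cells with the highest interferon sums, also chosen after seeing the data, gave 262 higher and 109 lower. Over all settings the interferon median ranged from 0.30 to 0.87 and the Myc target median from -0.30 to -0.19. Depth limits genes near 20 CPM, and no setting gives error between mice.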

Other observations

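Outside the naming rule, and chosen after their values were seen, several further genes had their whole counting interval past 1.5-fold in the Hlf and Mecom positive cells. Pou2f2, the gene of the lymphoid factor OCT-2, was at 55.4 CPM in KO and 13.9 CPM in WT cells and its log2 ratio in the other kept cells was 0.99. Bex6 was at 70.1 and 25.5 CPM (log2 ratio 1.46), and Gpr171, a G protein-coupled receptor gene, at 55.4 and 24.4 CPM (1.18). The kinase gene Cdk8, of the Mediator complex, was at 588 and 363 CPM (0.69). On the lower side, Gem, a small GTPase gene, was at 15.1 CPM in KO and 79.2 CPM in WT cells (-2.39), Ghr, the growth hormone receptor gene, at 16.4 and 50.7 CPM (-1.63), and P2rx7, an ATP-gated channel gene, at 22.7 and 62.0 CPM (-1.45). In the other kept cells P2rx7 was at 0.14 (0.05 to 0.22), in the opposite direction, and the difference was not tested. The collagen IV gene Col4a2 was at 25.8 and 52.9 CPM (-1.04) and its neighbour Col4a1 was also called lower. Rsad2, the gene of the antiviral enzyme viperin and no member of the interferon list, was at 47.0 and 15.7 CPM (1.58).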
